A study of Homo sapiens with 16 samples.

Results

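The regions described here were 866 distal CTCF sites that had a peak in both G12V libraries and in neither MCF10A library. They were chosen by their CTCF peak calls, so every value taken from the CTCF lists is a description of the choice and was not tested. Overlapping peaks of the 4 CTCF lists were merged into 29064 sites, of which 969 (3.33%) had this pattern of calls. Sites that touched a promoter, from 1000 bp upstream to 500 bp downstream of any start of transcription (TSS) annotated for a protein-coding gene, were set aside. That left 866 of 24920 distal sites (3.48%). The number rested on 2 libraries in particular: it was 3082 when the list of MCF10A replicate 2 was left out and 7505 when that of G12V replicate 1 was.

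MCF10A is a non-tumorigenic line of human mammary epithelial cells, labelled Parental, and G12V denotes MCF10A carrying H-RAS Gv12, the constitutively active form of the HRAS oncogene. The G12V cells had been transduced with a lentivirus and selected with hygromycin, with no cloning step in the methods, and both lines grew in the same medium with epidermal growth factor, insulin, hydrocortisone, cholera toxin and horse serum. CTCF and p53 were each mapped by ChIP-seq in 2 replicates per line with matched inputs, and the cells for the p53 libraries alone had received Nutlin, which stabilises p53. The lists differed in length more between replicates than between lines: MCF10A replicates 1 and 2 gave 11346 and 20136 CTCF peaks and G12V replicates 1 and 2 gave 12004 and 27678, at depths of 11.4 to 18.6 M ChIP reads solved from the lists. The methods call the replicates biological, and the labels do not say whether they came from separate cultures. The lists hold no expression values, and the epithelial identity of the cells was not checked here.

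CTCF is a zinc-finger protein that recognises a long, GC-rich motif through its central fingers. It stops the extrusion of chromatin loops by cohesin when the motif points towards the loop, and so marks the borders of many topological domains and insulates enhancers from promoters. Binding at some sites is sensitive to methylation of CpG dinucleotides within the motif, whereas other sites are occupied in nearly every cell type.

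To show what CTCF was called on in G12V cells, sequences of the strongest G12V-only sites are given from GRCh37, the same build as hg19, each read 5′ to 3′ on the stated strand. Capitals mark the match to the 12-base CTCF core motif, searched on both strands of the 150 bp around the summit with at most 1 mismatch. The first lies in a long non-coding RNA gene with UQCRFS1 as the nearest coding gene, on chromosome 19 (chr19:29124798-29124859, minus strand), the second lies near TPTE on chromosome 21 (chr21:11109149-11109210, minus strand), the third is in an intron of RBFOX1 (chr16:5540736-5540797, minus strand), the fourth is near ZC4H2 (chrX:64114732-64114793, plus strand) and the fifth is near TMEM114 (chr16:8223295-8223356, minus strand). These are the 5 sites with a match among the 10 strongest.
UQCRFS1 site: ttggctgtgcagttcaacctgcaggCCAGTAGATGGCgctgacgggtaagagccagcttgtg
TPTE site: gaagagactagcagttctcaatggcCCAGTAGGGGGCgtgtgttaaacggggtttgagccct
RBFOX1 site: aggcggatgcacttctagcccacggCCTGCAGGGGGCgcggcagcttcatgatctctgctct
ZC4H2 site: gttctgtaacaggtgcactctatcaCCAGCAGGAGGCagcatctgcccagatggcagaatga
TMEM114 site: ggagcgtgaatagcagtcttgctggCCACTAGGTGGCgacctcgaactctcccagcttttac

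In 4 of the 5 the core ends in C and the next base is G, so that a CpG closes the core, and the ZC4H2 site lacks it. For comparison, the 3 strongest distal sites with a motif that were called in all 4 libraries are given, of which those nearest RP11-685N3.1 (chr2:91815180-91815241, plus strand) and ENAH (chr1:225662767-225662828, plus strand) have this CpG and that nearest FMN2 (chr1:240139814-240139875, minus strand) does not.
RP11-685N3.1 shared site: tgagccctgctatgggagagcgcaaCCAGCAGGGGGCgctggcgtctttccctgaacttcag
FMN2 shared site: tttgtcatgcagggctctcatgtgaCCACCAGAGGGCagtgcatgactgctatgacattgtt
ENAH shared site: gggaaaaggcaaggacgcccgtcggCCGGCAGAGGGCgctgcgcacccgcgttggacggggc

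Other strong G12V-only sites had no such match. In the NTM intron (chr11:131618173-131618322, plus strand) and near STXBP6 (chr14:25275503-25275652, plus strand) capitals mark the best match of a weight matrix built from the motif matches of shared sites, with scores of 14.7 and 11.9 against a threshold of 11.3. The weakest site of the ranking, in an intron of SLCO3A1 (chr15:92622433-92622494, plus strand), is shown because it has a core without mismatch, again in capitals. Near SMARCD2 (chr17:61934542-61934691, plus strand) the best score was 1.8 and nothing is capitalised.
NTM site: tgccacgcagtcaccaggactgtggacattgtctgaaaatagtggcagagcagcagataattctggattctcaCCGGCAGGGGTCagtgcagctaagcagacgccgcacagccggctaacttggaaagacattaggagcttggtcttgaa
STXBP6 site: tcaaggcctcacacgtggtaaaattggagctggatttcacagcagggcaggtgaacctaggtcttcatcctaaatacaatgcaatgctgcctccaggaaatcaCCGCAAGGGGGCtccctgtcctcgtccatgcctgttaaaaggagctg
SLCO3A1 site: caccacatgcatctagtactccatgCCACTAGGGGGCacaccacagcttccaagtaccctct
SMARCD2 site: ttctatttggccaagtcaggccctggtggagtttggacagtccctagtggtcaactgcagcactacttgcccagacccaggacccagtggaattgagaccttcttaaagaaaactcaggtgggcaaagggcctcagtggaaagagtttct

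The G12V-only sites were on the weak side of both lists. Their fold enrichment, the authors' ratio of reads over the summit to local background, had a median of 6.38 in G12V replicate 1 (range 2.82 to 16.2) and 8.77 in replicate 2 (range 2.69 to 32.9). Distal sites called in all 4 libraries, called shared sites here, had medians of 7.46 and 14.7, and the 2314 distal sites of both G12V libraries and 1 MCF10A library lay between at 6.71 and 11.5. Of the 866 sites, 514 ranked below the median of both G12V lists and 109 above it in both, and 3 were within the first 1000 ranks of both. In bulk chromatin, weak binding in all cells and strong binding in a few cells cannot be told apart.

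**Figure D1:**
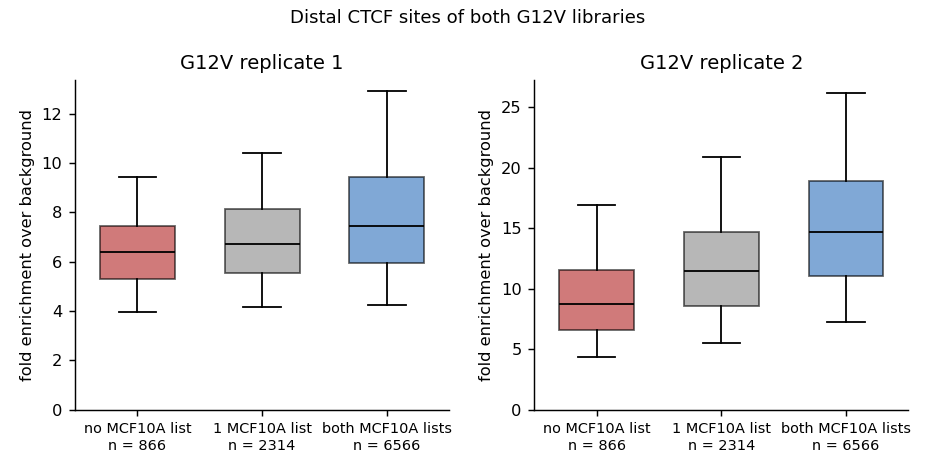
Fold enrichment (vertical axis, ratio over background) of distal CTCF sites called in both G12V libraries, split by whether no, 1 or both MCF10A lists also held a peak, for each G12V replicate. Boxes span the quartiles with the median as a line and whiskers reach the 5th and the 95th percentile; medians run from 6.38 to 7.46 in replicate 1 and from 8.77 to 14.7 in replicate 2.

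In reads, the median G12V-only site had 16 reads over its summit in replicate 1 and 25 in replicate 2, against 21 and 48 at shared sites. Scaled to 10 M ChIP reads these are 11.8 and 21.9 at G12V-only sites and 15.4 and 42.1 at shared sites. In the MCF10A libraries the shared sites reached 16.1 and 31.3 reads on that scale, and the weakest listed peaks 5.91 and 6.96. The lists hold no value for the G12V-only sites in MCF10A cells, so a site with reads just under the caller's threshold cannot be told from an empty one.

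Between the 2 G12V libraries the sites were only loosely ordered alike. The reads over the summit had Pearson's r = 0.607 and Spearman's rho = 0.501 across 864 sites, which share the local background and read-mappability of each position, and the fold enrichments r = 0.274 and rho = 0.22 across 866 sites. Each site consisted of exactly 1 peak per library, and the summits of the 2 libraries were a median of 29 bp apart.

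At the edges of the rule, the lowest −log10 q was 1.35 in replicate 1 and 1.70 in replicate 2, against a caller's threshold of 5% for q. The site closest to a promoter was nearest RFX2, with a gap of 20 bp and folds of 5.63 and 10.8. Just outside, a site nearest MEGF11 was excluded for an 18 bp overlap with a promoter and had folds of 6.3 and 8.53. A site nearest VAV2 lay 154 bp from the edge of an MCF10A peak, with folds of 7.37 and 4.23.

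The site with the highest combined rank lay 579219 bp from the TSS of UQCRFS1, which encodes the Rieske iron-sulphur subunit of respiratory complex III (chr19:29124592-29125055). It had 32 reads over its summit in G12V replicate 1 and 65 in replicate 2, at folds of 16.2 and 32.9, and the nearest MCF10A summit lay 245364 bp away. The next, 118280 bp from TPTE, a testis-expressed phosphatase gene, had more reads (61 and 99) but lower folds (8.8 and 12.9). Its solved local background, at the caller's scaled depth, was 6 and 6.24, against medians of 1.49 and 2 over the G12V-only sites. The part of that background in the call was not tested.

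The third site was 14191 bp upstream of SMARCD2, a subunit of SWI/SNF chromatin remodelling complexes, and had 32 and 65 reads at folds of 12.3 and 22.8. The site 343591 bp from WDR72 had 30 and 61 reads and held 14 CpG dinucleotides in its 150 bp, against a median of 2. Near STXBP6, a regulator of vesicle fusion, the values were 25 and 61 reads. All 3 had no motif match by the consensus search.

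The intronic site of RBFOX1, which encodes a neuronal splicing regulator, had 30 reads in G12V replicate 1 and 71 in replicate 2. The site 81570 bp from ZC4H2 had 25 and 49 reads and a motif match 65.5 bp from its summit. That match lay too near the edge of the window for the weight matrix to cover it. The best score in the window, 0.3, therefore does not describe the match. The TMEM114 site had 29 and 60 reads, with a match without mismatch, 53.5 bp from its summit, and a score of 21.5. The site 558225 bp from TYW1, a gene of tRNA modification, had 25 and 56 reads and no consensus match, and the intronic site of NTM, which encodes the neuronal adhesion protein neurotrimin, had 23 and 66. These 10 sites were strong in both G12V libraries, with percentile ranks from 80.5 to 99 in either list.

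At the other end of the list, the site 18715 bp from the TSS of SLCO3A1, an organic anion transporter gene, within an intron, had 13 and 10 reads at folds of 3.48 and 4.39. It still carried a motif without mismatch 18.5 bp from its summit. The weak sites nearest CLEC20A (13 and 19 reads) and CAMK1G (15 and 13 reads) had none. So a perfect core occurred at both ends of the ranking.

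A CTCF motif was less frequent at the G12V-only sites than at shared ones. It was present in 389 of 866 (44.9%, exact 95% interval 41.6 to 48.3) and in 4606 of 6566 shared sites (70.1%, 69 to 71.3). The difference of −25.2 percentage points had a 95% Newcombe interval of −28.7 to −21.7. Windows moved 2000 bp to either side of the G12V-only summits held a match in 0.924% of cases (16 of 1732). These intervals cover counting error over sites, which are not replicates of a condition.

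The share was also below that of sites with 1 MCF10A list (58.8%, difference −13.9 points, −17.7 to −9.96) and above that of the 6820 distal sites of a single G12V library (38%, difference 6.88 points, 3.4 to 10.4). Of those 6820 sites, 6637 had their peak in G12V replicate 2 and 183 in replicate 1. The part of the replicate in any difference from this class was not tested. Against the 61 distal sites called only in both MCF10A libraries, at 37.7%, the difference was 7.21 points, with an interval from −5.76 to 18.8 that spans 0. A match without mismatch was present in 99 G12V-only sites (11.4%) against 27.8% of shared sites.

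Motif shares were also set side by side by strength in the G12V lists. The distal sites of both G12V libraries were split by their summed relative rank into 5 strength groups of 1949 or 1950 sites. G12V-only sites made up 18 of 1950 in the strongest group (0.923%) and 551 of 1949 in the weakest (28.3%). In the second group 54.5% of 44 G12V-only sites had a motif (38.8 to 69.6) against 71.8% of 1604 shared sites (69.5 to 74). In the weakest group the shares were 41.2% of 551 (37.1 to 45.4) and 64.4% of 660 (60.6 to 68.1). In the strongest group, with 9 of 18 sites bearing a motif, the interval of 26 to 74 took in the 71.4% of shared sites. The groups did not equalise strength: in the weakest, the median folds were 5.86 and 7.31 at G12V-only sites and 5.22 and 8.77 at shared sites, and the part of strength in the difference was not tested.

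**Figure D2:**
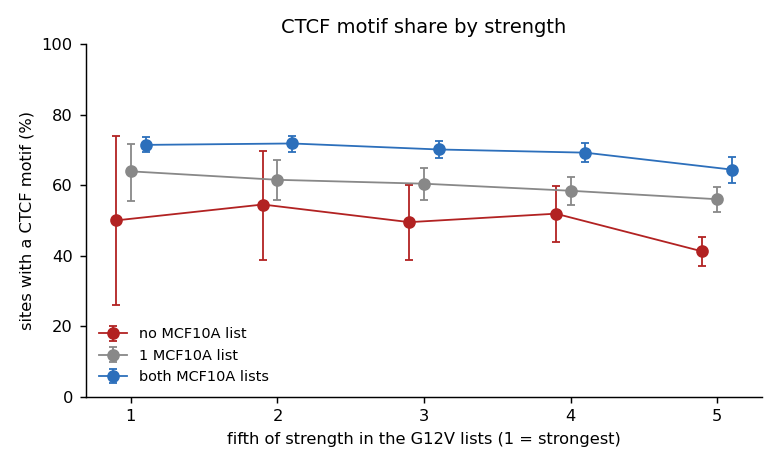
Share of distal CTCF sites with a CTCF motif (%, vertical axis) in 5 groups by strength in the G12V lists (horizontal axis, 1 is strongest), for sites with no, 1 or both MCF10A lists. Bars are exact 95% binomial intervals; the line without an MCF10A list runs from 50% to 41.2% and stays below the line of both MCF10A lists, at 71.4% to 64.4%.

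Where a motif was present, it was placed and oriented much as at shared sites. It lay within 25 bp of the summit in 228 of 389 sites (58.6%, 53.5 to 63.6) against 63.5% of shared sites, a difference of −4.85 points (−9.99 to 0.139). It was on the forward strand in 212 (54.5%, 49.4 to 59.5). Each motif was also paired with that of the nearest shared site with a motif. The pair was convergent, the orientation typical of loop anchors, for 85 motifs (21.9%, 17.8 to 26.3). It was divergent for 106 (27.2%), and in 198 pairs both motifs pointed the same way (50.9%). Among shared sites the convergent share was 23.6%.

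The 2 commonest cores were also common at shared sites. CCAGCAGGGGGC occurred in 16 of the 389 (4.11%) and in 4.41% of shared sites with a motif, and CCACCAGGGGGC in 13 (3.34%) and 5.19%. CCTGCAGGGGGC, the core of the strongest RBFOX1 site shown above, occurred in 10 (2.57%) and in 0.847% of shared sites. In all, 164 distinct cores were found in the 389 sites. By the weight matrix, the best score in the window had a median of 12.4 over all 866 sites (interval 11.9 to 12.9), 15 at sites with 1 MCF10A list and 17.3 at shared sites. The matrix was built from the shared sites themselves, which favours their scores.

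The CpG that closes the core was present in 123 of 389 G12V-only sites with a motif (31.6%, 27 to 36.5). The share was higher than at sites of 1 MCF10A and 1 G12V library (18.7%, difference 12.9 points, 8.26 to 17.9) and at sites of a single G12V library (13.8%, difference 17.8 points, 13.1 to 22.7). It was lower than at shared sites (41.9%, difference −10.3 points, −15 to −5.32). Against sites with 1 MCF10A list, which like the G12V-only sites needed a call in both G12V libraries, the difference was 4.71 points (−0.333 to 10). By strength group, 8 of the 9 motif-bearing G12V-only sites in the strongest had it (88.9%, against 48.6% of shared sites with a motif there). From the second to the weakest group the shares were 25% (6 of 24), 34.8% (16 of 46), 32.5% (27 of 83) and 29.1% (66 of 227). Those of shared sites were 42.6%, 42.3%, 34.3% and 33.6%. The differences by group rest on these small counts, carry no interval and were not tested. DNA methylation was not measured in these libraries.

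The base composition followed the same order. The median GC content of the 150 bp window was 53.3% (interval of the median 52.7 to 54), against 56% at shared sites, 52% at sites with 1 MCF10A list and 48.7% at sites of 1 MCF10A and 1 G12V library. No CpG was found in 97 windows (11.2%), against 5.91% of shared and 16.1% of those mixed sites. Nearly all mixed sites came from the replicate 2 libraries (4847 with a peak in MCF10A replicate 2 and 4989 in G12V replicate 2, of 5035), whose part in these differences was not tested.

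Motifs of transcription factors that respond to RAS signalling were not frequent at the G12V-only sites. The AP-1 motif TGACTCA or TGAGTCA, bound by FOS and JUN proteins downstream of MAP kinase, was in 13 of 866 windows (1.5%, 0.802 to 2.55). It was in 2.08% of the windows 2000 bp beside them, in 2.35% of all distal sites, in 1.49% of shared sites (difference 0.00862 points, −0.692 to 1.09) and in 2.84% of mixed sites (difference −1.34 points, −2.13 to −0.206). The ETS motif ACCGGAAG, the site of ELK1 and related MAP kinase targets, was in 2 windows (0.231%, 0.028 to 0.832) and in 0.225% of all distal sites.

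The TEAD motif GGAATG, through which YAP acts, was in 82 (9.47%, 7.6 to 11.6) against 7.04% of the windows beside them, 7.83% of shared and 9.14% of all distal sites. The GC box GGGCGG, bound by SP1, was in 71 (8.2%, 6.46 to 10.2), a difference of −4.9 points from shared sites (−6.75 to −2.73) and beside 7.78% of all distal sites. The p53 motif, made of adjacent half-sites, was in 4 (0.462%, 0.126 to 1.18) against 0.635% beside them and 0.638% of all distal sites. All these motifs were searched on both strands without mismatch, except that of p53, for which 3 mismatches were allowed.

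The G12V-only sites lay farther from a protein-coding TSS than shared ones, though somewhat more often inside a protein-coding gene. The median distance to the nearest protein-coding TSS was 25329 bp (interval of the median 21088 to 28590), against 15492 bp at shared sites (14757 to 16300) and 20472 bp at sites with 1 MCF10A list (19030 to 22190). A TSS lay within 100 kb of 660 sites (76.2%), which was −12.1 points from shared sites (−15.1 to −9.27) and −6.89 points from sites with 1 MCF10A list (−10.2 to −3.75). Sites of a single G12V library lay at a like distance, with a median of 25512 bp and a difference of −0.664 points in the share within 100 kb (−3.77 to 2.24). By annotation 370 summits were intronic (42.7%), 45 exonic (5.2%), 100 in long non-coding RNA genes (11.5%) and 351 intergenic (40.5%). The share inside protein-coding genes, 47.9% (44.5 to 51.3), was 4.21 points above that of shared sites (0.689 to 7.75) and 0.59 points from that of sites of a single G12V library (−2.93 to 4.12).

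Distances to the nearest protein-coding TSS were also given by strength group. In the strongest group the median was 139812 bp for 18 sites (14191 to 364556) and 15244 bp for 1788 shared sites. In the second group it was 70629 bp for 44 G12V-only sites (30205 to 107465) and 15346 bp for 1604 shared sites. For G12V-only sites the medians of the other groups were 30750 bp (18097 to 45264), 25190 bp (14800 to 41869) and 22100 bp (19085 to 26488), so that these 3 intervals overlapped and the interval of the strongest group took in every one of the medians. In the weakest group the median of shared sites was 16242 bp. Sites with 1 MCF10A list had medians of 14816 bp in the strongest and 21663 bp in the weakest group.

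**Figure D3:**
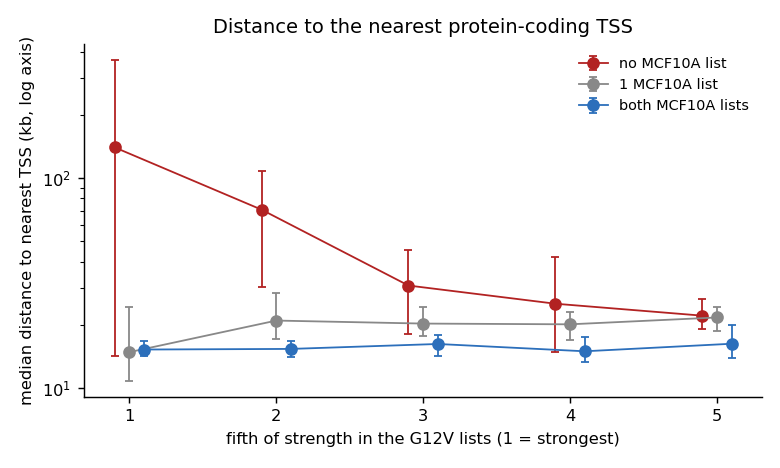
Median distance of distal CTCF sites to the nearest protein-coding TSS (kb, log axis) in 5 groups by strength in the G12V lists (1 is strongest), for sites with no, 1 or both MCF10A lists. Bars are order-statistic 95% intervals of the median. The medians without an MCF10A list run from 139812 to 22100 bp. The interval of the strongest group, of 18 sites, takes in the medians of the other 4, and that of the second group lies above that of the weakest.

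Most G12V-only sites were isolated from each other but a few neighbourhoods held many. The median distance to the next one was 794893 bp, and 122 of 866 had another within 100 kb. A site called in all 4 libraries, whether distal or at a promoter, lay within 100 kb of 454 of them. The median distance to the nearest such site was 89066 bp. The 866 summits touched 392 protein-coding genes, of which NTM, RBFOX1, ASIC2, CSMD1 and NELL1 held 3 or more. These 5 genes were picked after their counts were seen, and all are long. Each G12V-only site adds a peak to both G12V lists and none to the MCF10A lists. The choice of genes thus favours an excess of G12V peaks in them.

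RBFOX1 (chr16:5289803-7763342, 2474 kb) held 9 G12V-only sites among 18 distal CTCF sites, and the other 9 had a peak in a single G12V library. By list, MCF10A replicates 1 and 2 had 0 and 0 CTCF peaks in the gene and G12V replicates 1 and 2 had 9 and 18. Over all distal sites, 30.8% had no MCF10A peak. The 9 sites had folds from 4.96 to 12.2 in replicate 1 and from 5.4 to 16.9 in replicate 2, and 5 of them had a motif. The p53 lists had 1 and 0 peaks in the gene in MCF10A replicates 1 and 2 and 1 and 2 in G12V replicates 1 and 2.

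NTM (chr11:131240373-132206716, 966 kb) held 10 G12V-only sites among 21 distal sites, of which 3 had an MCF10A peak. Its CTCF peaks numbered 1 and 3 in the MCF10A lists and 13 and 21 in the G12V lists. The G12V-only sites had 12 to 24 reads over the summit in replicate 1 and 32 to 66 in replicate 2, and 4 had a motif. They were spread along the gene, on both sides of the 3 sites with an MCF10A peak. With all lists cut to equal length RBFOX1 held 3 and NTM 7 such sites, and with G12V replicate 1 left out each held 18.

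**Figure D4:**
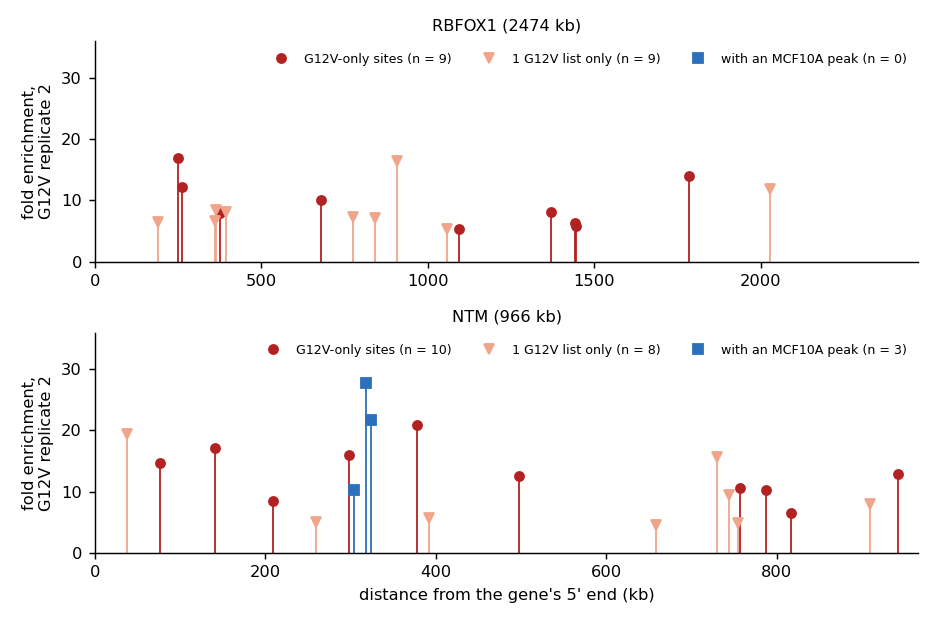
Distal CTCF sites inside RBFOX1 and NTM, by distance from the 5′ end of the gene (kb, horizontal axis) and fold enrichment in G12V replicate 2 (vertical axis). Circles are G12V-only sites, triangles sites of a single G12V library and squares sites with an MCF10A peak, of which RBFOX1 had none and NTM 3.

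In the other 3 genes, chosen in the same way, each G12V list held more peaks than either MCF10A list. ASIC2, an acid-sensing ion channel of neurons, held 6 G12V-only among 17 distal sites, with 4 and 6 peaks in the MCF10A lists and 11 and 16 in the G12V lists. CSMD1, which encodes a large complement-regulatory membrane protein, held 5 of 13, with 2 and 5 peaks against 10 and 14. NELL1, a secreted protein of bone formation, held 3 of 6, with 0 and 1 against 3 and 6. The solved background in the G12V lists, at the caller's scaled depth, had medians of 1.61 and 3 at the RBFOX1 sites. At the NTM sites they were 2 and 2.23, against 1.49 and 2 over all G12V-only sites. The input level in MCF10A cells at these places is not in the lists, and copy number was not tested.

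Across the genome in 5 Mb bins, the G12V-only sites made up a median of 2.86% of the distal sites in the 499 bins with at least 20 distal sites. The highest share, 40.9%, was in a bin of chromosome 19 (chr19:25000001-30000000), with 9 of 22 sites. That bin, picked by this share, had 0 and 2 CTCF peaks in MCF10A replicates 1 and 2 and 9 and 22 in G12V replicates 1 and 2. Its 9 sites all had UQCRFS1 as the nearest protein-coding gene, at 50421 to 1239004 bp, and 4 of them had a motif. The bin with RBFOX1 had 11 of 42 (26.2%), the bin with NTM 14 of 60 (23.3%) and the bin with ASIC2 12 of 64 (18.8%). In 139 of the 499 bins there was no G12V-only site.

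**Figure D5:**
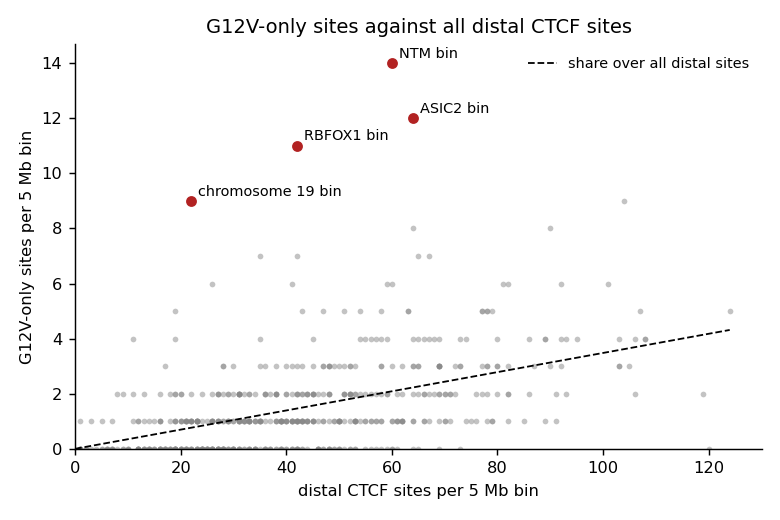
Number of G12V-only sites (vertical axis) against all distal CTCF sites (horizontal axis) in 5 Mb bins of the genome, one point per bin, with the dashed line at the overall share of 3.48%. Red points are the bins named in the text, which hold 9 to 14 G12V-only sites each.

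By chromosome the share of distal sites that were G12V-only ran from 2.11% on chromosome 2 (1.51 to 2.86) to 6.3% on chromosome 22 (4.32 to 8.82). Chromosomes 19 (5.74%, 4.31 to 7.48), 16 (5.64%, 4.19 to 7.41), 17 (5.12%, 3.9 to 6.58) and 11 (4.67%, 3.6 to 5.94) also lay above the overall share, in intervals not adjusted for the number of chromosomes. On 16p, the arm of RBFOX1, 29 of 355 were G12V-only (8.17%, 5.54 to 11.5). Chromosome 17q held 49 of 856 (5.72%), and its shared sites had median backgrounds of 1.36 and 2 reads in MCF10A and 2.21 and 2.45 in G12V, beside 1.90 and 2 in MCF10A and 2 and 2 in G12V over all shared distal sites. Chromosomes 1q and 5q held 37 of 1261 (2.93%) and 24 of 1070 (2.24%).

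A G12V-only site lay near a few genes of RAS signalling, epithelial identity and the cell cycle. Over all protein-coding genes, 1818 of 20149 (9.02%) had such a site within 100 kb of a TSS. Of the RAS-MAPK feedback genes 1 of 14 had one, of the AP-1 genes 1 of 12, of the EGF receptors and ligands 1 of 12, of the epithelial-mesenchymal transition (EMT) genes 2 of 20, of the basal epithelial genes 2 of 15, of the cell cycle genes 2 of 13, of the CTCF and cohesin genes 1 of 10 and of the ETS factors 1 of 12. With so few genes per list the intervals were wide, for example 0.181 to 33.9% for RAS-MAPK feedback.

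The closest was ETS2, a transcription factor phosphorylated by MAP kinase, with a site 8474 bp from its TSS (chr21:40168455-40168793). It had 12 reads in G12V replicate 1 and 30 in replicate 2, at folds of 5.81 and 7.28. TGFB1, the cytokine that drives EMT, had a site 20080 bp from its TSS inside the gene, where it overlaps CCDC97 (chr19:41827661-41828010), with 16 and 33 reads and a motif. TWIST2, an EMT transcription factor, had an intronic site at 27182 bp with 18 and 20 reads (chr2:239783877-239784343).

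EGFR, the receptor for the growth factor in the medium, had a site 70697 bp from its TSS (chr7:55338702-55339141) with 15 and 36 reads and folds of 7.21 and 18.5, which ranked 7660 of 12004 in replicate 1 and 6147 of 27678 in replicate 2. CCND1, which encodes cyclin D1, had one at 73940 bp with 17 and 24 reads, and CDK6, its partner kinase, one at 43943 bp with 15 and 20. The AP-1 gene JUND had a site at 51284 bp with 17 and 23 reads, and a shared site lay 1400 bp from its TSS. The receptor gene EPHA2 had one at 49071 bp, in an exon of ARHGEF19, with 12 and 20 reads.

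The hemidesmosome gene ITGB4 had a site at 66934 bp with 14 and 14 reads, and the laminin gene LAMB3 had 2 sites within 100 kb, the nearer at 63674 bp with 15 and 13. RAD21, a cohesin subunit, had one at 38018 bp with 15 and 26 reads. As at JUND, a shared site lay nearer the TSS at ITGB4 (1737 bp), LAMB3 (9020 bp) and RAD21 (12870 bp). The same held at CCND1 (22484 bp), EPHA2 (31870 bp) and EGFR (54484 bp). At ETS2, TGFB1, TWIST2 and CDK6 the G12V-only site was the nearer. None of these 11 genes has a transcript level in the lists, and the nearest gene is not shown to be the target of a site.

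p53 peaks were rare at the G12V-only sites, as at distal CTCF sites in general. The share with a p53 peak was 0% in MCF10A replicate 1, 0% in MCF10A replicate 2, 0% in G12V replicate 1 and 0.115% in G12V replicate 2, which is 1 site of 866. A count of 0 of 866 allows a share of up to 0.425% by the exact interval. Over all distal CTCF sites the shares were 0.0642%, 0.0441%, 0.0441% and 0.265% in the same order, from p53 lists of 1718, 885, 477 and 2619 peaks. With the p53 peaks moved by 10 kb in either direction, no G12V-only site was met in any library.

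The means were 0% (SD 0, n = 2) in MCF10A and 0.0577% (SD 0.0817, n = 2) in G12V cells, a difference of 0.0577 points. The exact two-sided permutation test gave p = 1, and with 4 libraries it can never give less than 0.333. With a single library above 0, every assignment gives a difference of the same size. No other p-value was possible here, so the test decides nothing. That single site was intergenic, 64889 bp from the TSS of GRID1, a glutamate receptor gene (chr10:87307817-87308161). It had CTCF folds of 6.94 and 6.81 and a p53 fold of 6.34 at rank 1890 of the G12V replicate 2 list, and neither a CTCF nor a p53 motif.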

How the data were processed

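The series held 16 samples: 8 ChIP libraries with peak lists and 8 inputs that entered through the peak caller. The authors aligned reads to hg19 with Bowtie (named in the submitters' processing notes), kept unique alignments and called peaks with MACS2 on each library against input at a 5% false discovery rate. The deposited lists hold 1 line per peak with its fold enrichment (a ratio), the −log10 of p and of q, a score derived from q and the offset of the summit, all made by the authors. They served to describe and rank peaks. Absence from a list means only that no peak passed the caller's threshold.

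No column of another series was present (0 columns). Peaks overlapping by at least 1 bp were merged, and genes came from GENCODE release 44 on GRCh37, with the TSS of every transcript of a protein-coding gene. Reads over the summit and local background were solved from the fold and −log10 p, taking the background as Poisson and the pileup as whole reads, which gave a single solution for 99.7% to 100% of peaks per library. Reads are given unscaled, whereas the background is at the depth to which the caller scaled ChIP and input. Depth was taken from the lowest background and a mappable genome of 2.7 Gb.

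Motifs were searched in 150 bp centred on the summit of a site's strongest peak. The weight matrix was built from 4606 motif matches of shared sites, with its threshold at the 99th percentile of scores beside sites. Shares carry exact (Clopper-Pearson) 95% intervals, differences of shares Newcombe intervals, and medians order-statistic intervals. They cover counting error over sites only. p53 shares were compared with an exact permutation test over the 6 assignments of 4 libraries. The named sites were the 10 with the smallest and the 3 with the largest sum of ranks in the G12V lists, and the named genes were those of the lists within 100 kb. The members, the gene lists and the motifs were chosen with earlier results of these data known, and the class with 1 MCF10A list, the 5 strength groups, the 5 Mb bins and the host genes after their values were seen. Merging, motif search and the recovery of reads were tested on simulated data. Python 3.11.15, numpy 2.4.6, pandas 2.3.3, scipy 1.17.1 and pysam 0.24.0 were used.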

Additional observations from a re-analysis of the deposited data

How the results depend on the processing

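The number of G12V-only sites depended on the lists more than on any other choice. With all lists cut to the 11346 strongest peaks it was 557, their motif share 53% and the difference from shared sites −18.6 points. Leaving out 1 CTCF library gave 967 to 7505 sites, the extremes being without MCF10A replicate 1 and without G12V replicate 1, and 3082 without MCF10A replicate 2. The motif share then ran from 39.3% to 54.7% and the difference from −29.3 to −15 points. Without mismatch the motif share was 11.4% and the difference −16.4 points. The weight matrix, built from shared sites and so favouring them, gave a share of 57.6%, and 300 bp windows a share of 49.8%. The motif difference kept its sign in every alternative. Only this difference and that of p53 below could reverse, and neither did. Of 133 comparisons 102 were labelled the same. That meant a value within the 95% interval of the reported one, or for counts within 1.5 times of it. For the p53 difference it meant the same sign only, whatever the size. Members inside RBFOX1 numbered 3 in the equal lists and 7 to 18 in the other alternatives, and those inside NTM 7 to 18.

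For p53, pairing the libraries by replicate number as a block left the difference at 0.0577 points, and without 1 p53 library it ran from 0 to 0.115, the 0 being without G12V replicate 2. Without 1 CTCF library it was 0.0472 to 0.162. The numbers name replicates only, and with 1 site of 866 the check of pairing had nothing to work on. The rule on protein-coding transcripts alone, added after the data were seen, gave 906 sites.

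The lists hold no reads below the caller's threshold, there are 2 replicates per line, and sites are not independent samples.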
